A study of Mustela putorius furo with 10 samples.

Results

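Nonsense-mediated decay (NMD) is the pathway that removes mRNAs on which the ribosome terminates too early, and it also sets the level of many normal mRNAs. The helicase UPF1 is recruited to the terminating ribosome, UPF2 and the UPF3 proteins connect it to the exon junction complex left by splicing, and the kinase SMG1, held in check by SMG8 and SMG9, phosphorylates UPF1. Phosphorylated UPF1 then binds SMG6, which cuts the mRNA, or SMG5, which links it to the deadenylation and decapping enzymes.

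The genes described here were the UPF and SMG factors UPF1, UPF2, UPF3A, UPF3B, SMG1, SMG5, SMG6, SMG8 and SMG9, taken as a list of symbols without a threshold on their response to cold. The list was chosen with earlier results of these data known. The symbols were matched through the RefSeq ferret gene name of each target sequence on the array, and a gene was measured where the ferret channel was well above background on at least 4 of 10 arrays. Of the 9 listed genes, 7 were matched and all 7 were measured, among 26303 genes in all. Of these 26303, 9276 had a symbol, and each target sequence without a gene name was counted as a gene of its own. Shares of all genes below are therefore shares of named genes and unnamed sequences together. No target sequence carried the names SMG5 and SMG8, so neither has a value.

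The arrays measured RNA of peripheral blood mononuclear cells (PBMC) of ferrets (Mustela putorius furo), purified from heart blood on a Ficoll gradient. All animals were males of 3 months that were fed ad libitum, and no strain or genotype was given. The 6 control ferrets were kept at 22 °C and the 4 cold ferrets at 4 °C for 1 week. Both groups of the study held more animals than were put on arrays, and more were missing from the cold group. For cold animals the study names difficulty in obtaining PBMC, and the part of this loss in the values was not tested. The cold animals were caged singly and the caging of the controls was not given, so that temperature and caging cannot be told apart. Each ferret had 1 array, on which its RNA carried the dye Cy3 and a common reference pool of PBMC mixed with other tissues carried Cy5. Values are log2 ratios of Cy3 to Cy5, so a positive value means more of the transcript in the ferret than in the pool, and a change is the mean of the cold arrays minus the mean of the control arrays.

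Of the spots, 50.4 to 63.5% on the control arrays and 58.0 to 61.1% on the cold arrays had a ferret signal well above background. For the reference pool the share was 27.0 to 54.9% on the control arrays and 40.5 to 64.0% on the cold arrays. The 7 T cell, 5 B cell and 5 monocyte markers measured were well above background on all arrays. Several marker lists differed between the groups, by exact two-sided permutation without adjustment over the 7 lists. Mean log2 ratios over the 5 measured neutrophil markers of 8 listed were 0.84 to 1.47 in the controls and 1.64 to 2.06 in cold (exact p = 0.00476), and those over the 5 monocyte markers of 7 were 0.53 to 1.10 and 1.05 to 1.90 (exact p = 0.0143). The 5 platelet markers of 7 ran from -0.041 to 1.54 and from 0.99 to 2.14 (exact p = 0.0286). The 7 T cell markers of 8 had means of 0.046 to 0.34 in the controls and -0.67 to 0.12 in cold (exact p = 0.00952), and the 4 erythroid markers of 7 had 0.18 to 1.12 and -0.85 to -0.055 (exact p = 0.00476). Neither the 5 B cell markers of 7 nor the 3 NK cell markers of 6 passed the same test (exact p = 0.610 and 0.995). The part of these shifts in the values below was not tested, and in bulk RNA fewer cells of a type and less RNA per cell cannot be told apart.

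No NMD factor passed the test of cold against control after Benjamini-Hochberg adjustment over all genes in limma, and neither did any of the 26303 genes (0%; lowest adjusted p = 0.0576). At an unadjusted limma p under 0.01, the threshold named in the study's methods, 0 of the 7 factors passed, beside 8.64% of all genes (3.43% lower in cold). At an unadjusted p under 0.05, UPF2 and UPF3B passed, both lower in cold, beside 24.7% of all genes and 12.5% in that direction. The median change of the 7 factors was -0.079, against -0.011 over all genes. A change below 0 was measured for 5 of the 7 factors and for 52% of all genes. The changes of the 7 factors lay between -0.23 and 0.16. The groups did not overlap for 1 factor (UPF2) and for 5.22% of all genes, 2.15% lower and 3.07% higher in cold.

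**Figure D1:**
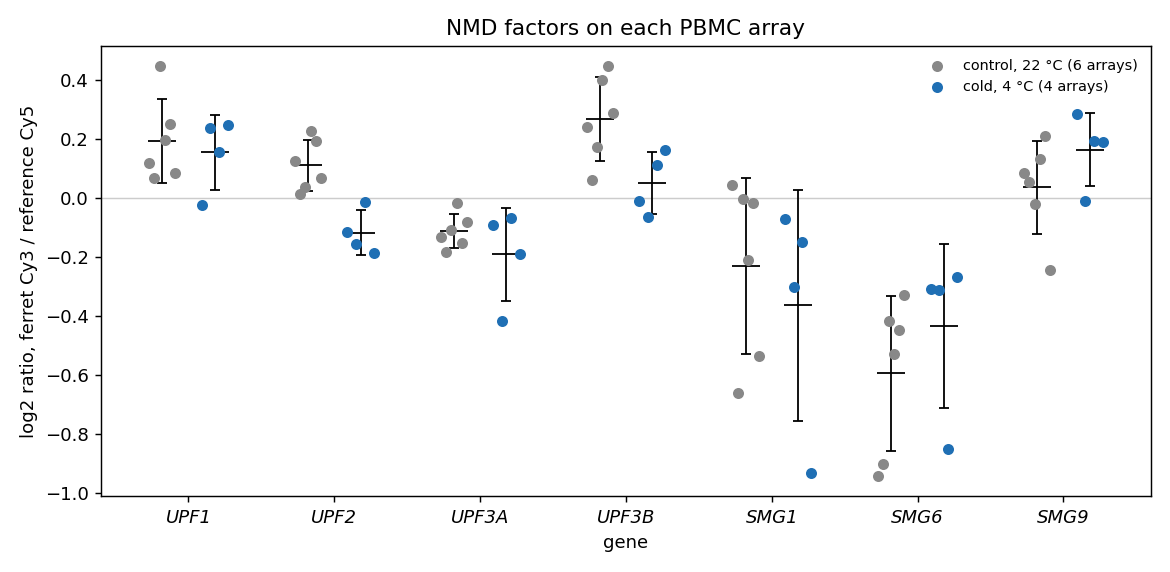
Log2 ratio of ferret Cy3 to reference Cy5 (y axis) for the 7 measured NMD factors (x axis), with 1 point per array in grey for the 6 control ferrets and blue for the 4 cold ferrets, and the mean with bars of ± 1 SD. The UPF2 points of the groups do not overlap, the cold points of UPF3B lie in the lower part of the control range or below it, and for the other 5 genes the groups overlap.

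UPF1, the ATP-driven helicase at the centre of the pathway, had a small change in the loess-normalized ratio. Its control arrays ran from 0.066 through a median of 0.16 to 0.44, and cold replicates 1 to 4 had -0.026, 0.24, 0.16 and 0.25. All but the first cold array lay within the control range. The group means were 0.19 ± 0.14 (SD, n = 6) and 0.15 ± 0.13 (SD, n = 4). The change was -0.040 (SE 0.095, 95% interval -0.25 to 0.17), with an adjusted p of 0.830 in limma. Of its 4 probes, 3 had a negative and 1 a positive change. The size of the change depended on the scaling: it was -1.07 when each array was centred on its median in place of loess, where the median over all genes was -0.43, and -0.53 in the authors' value table (adjusted p = 0.169 and 0.258 in limma).

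UPF2, the scaffold that joins UPF1 to the UPF3 proteins, was the only factor whose groups did not overlap. In the controls its log2 ratio had a lowest value of 0.013, a median of 0.095 and a highest value of 0.23. In the cold arrays it was -0.12, -0.16, -0.014 and -0.19. All 4 cold arrays lay below all 6 control arrays, and the gap between the nearest arrays of the groups was small beside the spread within either group. The means were 0.11 ± 0.086 (SD, n = 6) and -0.12 ± 0.076 (SD, n = 4). The change was -0.23 (SE 0.074, 95% interval -0.39 to -0.066), a cold level of 0.853 times the control level. The limma p was 0.0102 and its adjusted value 0.116, and the exact two-sided permutation p was 0.00476, the smallest that 6 against 4 arrays allow. On both slide positions the change was negative, -0.24 over 4 control and 2 cold arrays on position 1 and -0.22 over 2 and 2 arrays on position 2.

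The signal of UPF2 was dim, and its value depended on the processing. Its 4 probes were all lower in cold, with changes of -0.28 to -0.13, but 1 of them was well above background in the ferret channel on 4 arrays and another on 9. In the reference channel 6.25% of its spots were well above background on the control arrays and 43.8% on the cold arrays. The reference signal of UPF2, after quantile normalization of that channel alone, was higher in cold by 0.087 (exact permutation p = 0.00952), although the pool was common to all arrays. Its ferret signal alone was lower, with a change of -0.24 (exact permutation p = 0.119). Without background subtraction but with loess the change of UPF2 was -0.34, and with the scanner's processed signals it was -0.83. In the authors' value table, which has neither background subtraction nor loess, it was 0.032. With the reference channel also required to be above background, only 1 of its probes was left, with a change of -0.24 that did not pass. The part of the reference signal in the ratio of UPF2 was not tested.

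UPF3A and UPF3B are paralogs that bind UPF2 and the exon junction complex, UPF3B being the more active in decay and encoded on the X chromosome of mammals. The study singled out both genes from these same animals, so their direction here is not independent evidence. UPF3B had control values of 0.059 at the lowest, 0.26 at the median and 0.44 at the highest. Its cold values were -0.012, -0.064, 0.11 and 0.16. All 4 cold arrays were below the control median and 2 were below every control array, while the other two overlapped the controls. The means were 0.27 ± 0.14 (SD, n = 6) and 0.049 ± 0.10 (SD, n = 4). UPF3B changed by -0.22 (SE 0.092, 95% interval -0.42 to -0.015), a cold level of 0.859 times the control level, with a limma p of 0.0374, an adjusted p of 0.179 and an exact two-sided permutation p of 0.0476.

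The lower ratio of UPF3B was shared by all its probes. The gene was covered by 8 probes on 2 target sequences, and each probe was lower in cold, with changes of -0.33 to -0.10. The sequences gave changes of -0.20 (exact permutation p = 0.0238) and -0.24 (exact permutation p = 0.0905), and being transcripts of 1 gene they are not separate measurements of the animals. Within slide positions 1 and 2 the change was -0.29 and -0.17. The ferret channel alone gave -0.32 (limma adjusted p = 0.158) and the reference channel alone 0.094 (exact permutation p = 0.0857). Reference spots of UPF3B were well above background in 59.7% of cases on the control arrays and in 91.7% on the cold arrays. UPF3B was lower in cold under all 23 alternative settings tried, with changes from -0.80 to -0.17. The change could not move with the methods' t-test, which uses the same means. It also stayed the same under every filter on probes, since all probes of UPF3B were kept. The settings use the same animals, so their number is not independent support for the direction. The call of UPF3B at an unadjusted limma p under 0.05 was lost in several settings. The limma p of UPF3B was 0.126 with the replicate block (UPF2: 0.0773), which left out control replicates 5 and 6. It was 0.124 with array weights and 0.0501 with the reference channel also required to be above background. It was above 0.05 in 6 of the 10 fits that left out 1 array, up to 0.104.

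**Figure D2:**
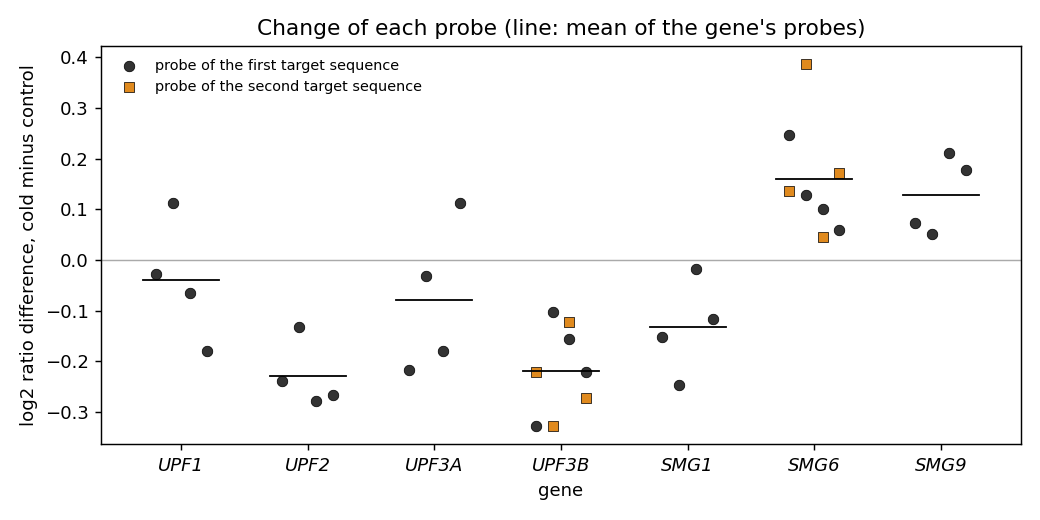
Change in log2 ratio, cold minus control (y axis), of each probe of the 7 NMD factors (x axis), with circles for probes of the first target sequence, squares for those of the second, and a line at the mean of the gene's probes. All probes of UPF2, UPF3B and SMG1 lie below 0, all probes of SMG6 and SMG9 lie above 0, and UPF1 and UPF3A each have 1 probe above 0.

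UPF3A lay between -0.18 and -0.019 on the control arrays, with a median of -0.12. The cold arrays had -0.092, -0.42, -0.069 and -0.19, so that cold replicate 2 was the lowest of all arrays and replicates 1 and 3 were in the control range. The change was -0.079 (SE 0.083, 95% interval -0.26 to 0.10, adjusted p = 0.592 in limma). With the median over probes in place of the mean it was 0.0094, under median centring -0.79 and in the authors' table -0.39 (adjusted p = 0.164 and 0.249 in limma). The ratio of UPF3B less that of UPF3A was 0.38 ± 0.13 (SD, n = 6) in the controls and 0.24 ± 0.14 (SD, n = 4) in cold. This difference of the paralogs changed by -0.14 (95% interval -0.34 to 0.062), which did not pass the exact permutation test (p = 0.138, and 0.138 after adjustment over the 2 differences tested). A difference in response of UPF3B and UPF3A was thus not shown, and the interval includes changes as large as that of UPF3B itself. The same held for UPF1 less UPF2, which changed by 0.19 (95% interval -0.048 to 0.43) with an exact permutation p of 0.110, or 0.138 after adjustment.

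SMG1, the kinase of UPF1 and a relative of mTOR and ATM, had the largest SD of the 7 factors in both groups, 0.30 over the control and 0.39 over the cold arrays. Control values ran from -0.66 through a median of -0.12 to 0.041, and cold values were -0.073, -0.30, -0.15 and -0.93. Cold replicate 4 was the lowest of all arrays and the other cold arrays lay within the control range. The change was -0.13 (SE 0.19, 95% interval -0.56 to 0.29, adjusted p = 0.709 in limma), and without cold replicate 4 it was 0.057. Under median centring it was -0.94 and in the authors' table -0.49 (adjusted p = 0.164 and 0.250 in limma). Within slide position 1 it was 0.16 and within position 2 it was -0.53. SMG1 had 4 probes, all lower in cold, with changes of -0.25 to -0.017. Their levels differed: the probe with the brightest ferret signal had a control mean of -1.38, and the others had 0.044 to 0.32.

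SMG9, which with SMG8 forms the regulatory partner of SMG1, had control values from -0.25 through a median of 0.069 to 0.21. Its cold values were 0.28, -0.011, 0.19 and 0.19, of which 1 was above every control array. The change was 0.13 (SE 0.099, 95% interval -0.090 to 0.35, adjusted p = 0.447 in limma), and all 4 probes were higher in cold, by 0.051 to 0.21. Under the ferret channel alone the change of SMG9 was -0.054.

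SMG6, the endonuclease of the pathway, was the factor whose single channels differed most between the groups. In the ratio its control arrays ran from -0.94 through a median of -0.49 to -0.33. The cold arrays had -0.31, -0.31, -0.85 and -0.27, so that 3 of the 4 lay above every control array and cold replicate 3 lay near the lowest controls. The change was 0.16 (SE 0.16, 95% interval -0.19 to 0.51, adjusted p = 0.565 in limma), and it was 0.37 within slide position 1 and -0.13 within position 2. All 8 probes on 2 target sequences were higher in cold, by 0.046 to 0.39.

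The ferret signal of SMG6 alone went the other way. After quantile normalization of Cy3 the control arrays had log2 intensities of 12.57, 12.46, 12.21, 12.31, 12.04 and 12.21, and the cold arrays 11.78, 11.80, 11.61 and 11.72. All cold arrays were below all control arrays. The means were 12.3 ± 0.19 (SD, n = 6) and 11.7 ± 0.086 (SD, n = 4). This signal fell by 0.57 on the log2 scale (adjusted p = 0.0355 in limma). SMG6 was the only factor to pass the adjusted test in that channel, beside 2.82% of all genes, and the only one at an unadjusted p under 0.01, beside 9.84% of all genes and 4.36% lower in cold. The reference signal of SMG6 had a mean of 9.51 ± 0.40 (SD, n = 6) on the control arrays and 8.87 ± 0.22 (SD, n = 4) on the cold arrays. It differed by -0.64 (exact permutation p = 0.0286). Of all genes, 0.182% had a lower change in the reference channel, whereas the other 6 factors had reference changes of -0.083 to 0.094. The pool was common to all arrays, so the fall of the ferret signal of SMG6 came with a shift of the reference signal at the same spots, and the part of one in the other was not tested.

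**Figure D3:**
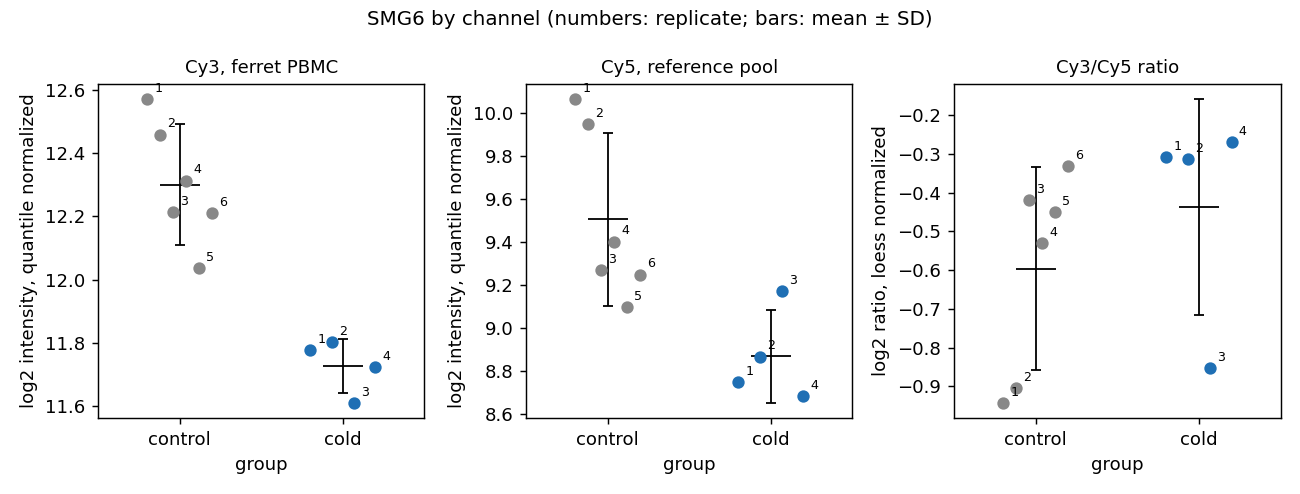
SMG6 on each array as log2 Cy3 intensity of the ferret (left), log2 Cy5 intensity of the reference pool (middle) and log2 ratio (right), with replicate numbers beside the points, grey for control and blue for cold, and bars for mean ± SD. Both intensities are lower in cold, the ferret signal without overlap, and the ratio of cold replicate 3 at -0.85 is apart from the other 3 cold arrays.

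**Figure D4:**
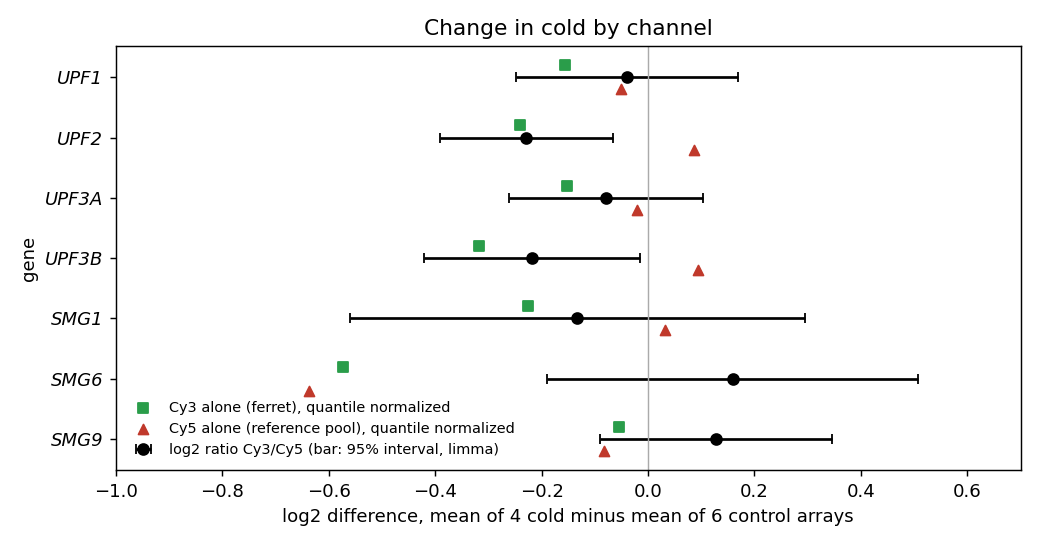
Change of each NMD factor, cold minus control on the log2 scale (x axis), as the ratio with its 95% limma interval (black circle), the ferret channel alone (green square) and the reference channel alone (red triangle). The ferret channel is below 0 for all 7 genes and the ratio is below 0 for 5, and SMG6 has the lowest change of both single channels.

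The expression profile over the 10 arrays most like that of UPF3B was that of NSD3, a histone methyltransferase, followed by GALNT7, a glycosyltransferase, and WBP4, a spliceosome protein. The likeness was measured as the root mean square difference of the centred log2 ratios, which was 0.0655, 0.0699 and 0.0705 for these genes against a median of 0.252 over 8340 genes with a symbol. UPF2 was next among the factors at 0.0855, with 9 genes nearer. UPF3A was at 0.134 with 282 genes nearer, and SMG1 and SMG6 were at 0.320 and 0.303. Since the profile holds the change with cold itself, the measure was repeated on deviations from the group means, where UPF2 was at 0.0854 with 102 genes nearer. These are descriptions over arrays that share a reference pool, without a test.

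Around the core factors, 81 genes of 8 lists on mRNA surveillance and decay were measured, of 103 listed. None passed the adjusted test, and their median change was -0.013. At an unadjusted limma p under 0.01, 3 were lower and 1 higher, 4 of 81 in all, which is a smaller share than the 8.64% of all genes (3.43% lower). The groups did not overlap for 2 of the 81 that were lower in cold and 1 that was higher. Over all genes the shares without overlap were 2.15% lower and 3.07% higher. Of the 10 further NMD cofactors measured, 6 were lower and 4 higher in cold, and none passed p under 0.01. The cofactor with the lowest p was STAU2, a double-stranded RNA-binding protein of Staufen-mediated decay, at 0.59 (SE 0.22, limma p = 0.0226, exact permutation p = 0.0524).

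The exon junction complex and its peripheral proteins, to which UPF3B binds, had 9 measured genes, 4 lower and 5 higher. PNN, a splicing-associated protein of the periphery of the complex, was lower with no overlap of the groups. The gap between its nearest control and cold arrays was small beside the spread within either group. Its control arrays had log2 ratios of -0.55 to -0.029, and its cold arrays -0.62, -0.56, -0.86 and -0.70. The change was -0.44 (SE 0.12, limma p = 0.00317, exact permutation p = 0.00952, adjusted p = 0.0863). RNPS1 and CASC3, also of the complex, had -0.36 (exact permutation p = 0.0333) and -0.27 (exact permutation p = 0.0619), while the core pair MAGOH and RBM8A had 0.040 and 0.082.

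Among 8 genes of cap binding and translation termination, 4 were lower and 4 higher. GSPT1, the release factor eRF3a that meets UPF1 at the stop codon, had control values of -0.37 to -0.018 and cold values of -0.43, -0.38, -0.51 and -0.58, which did not overlap. The change of GSPT1 was -0.29 (SE 0.090, limma p = 0.00717, exact permutation p = 0.00952, adjusted p = 0.106). In the 15 genes of decapping and decay from the 5′ end, 8 were lower and 7 higher, and DDX6, a helicase that activates decapping, passed p under 0.01. DDX6 had control values of 0.10 to 0.40 and cold values of 0.0015, -0.062, -0.053 and 0.12, with a change of -0.27 (SE 0.079, limma p = 0.00639, exact permutation p = 0.0143, adjusted p = 0.102).

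Of 11 genes of deadenylation, 7 were lower and 4 higher. PAN2, the nuclease of the PAN2-PAN3 deadenylase, was the only gene of the 8 lists that was higher at p under 0.01. Its control values were 0.056 to 0.25 and its cold values 0.43, 0.34, 0.39 and 0.48, without overlap, and the change was 0.26 (SE 0.068, limma p = 0.00307, exact permutation p = 0.00476, adjusted p = 0.0856). When each array was centred on its median in place of loess, the change of PAN2 was -0.076 against a median of -0.43 over all genes. The exosome and SKI complex, which degrade RNA from the 3′ end, had 10 genes lower and 3 higher of 13, none at a limma p under 0.01. EXOSC9 had the lowest limma p (change -0.24, limma p = 0.0144, exact permutation p = 0.00952). The kinases related to SMG1 and their assembly chaperones had 4 genes lower and 1 higher of 5. MTOR had the lowest limma p (change -0.23, limma p = 0.0564, exact permutation p = 0.0667). TTI2 had the lower exact permutation p (change -0.19, limma p = 0.0626, exact permutation p = 0.0476).

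The list of transcripts commonly used as readouts of NMD had 10 measured genes, 8 higher and 2 lower in cold, with a median change of 0.25. None passed p under 0.01 and 3 were higher at an unadjusted limma p under 0.05, beside 12.2% of all genes. UPP1, an enzyme of uridine breakdown, had control values of 0.38 to 1.15 and cold values of 1.15, 0.98, 1.63 and 1.19, a change of 0.51 (SE 0.17, limma p = 0.0109, exact permutation p = 0.0238). Under median centring the change of UPP1 was -0.28, against -0.43 for the median of all genes, and in the authors' table it was 0.16. GADD45B and CDKN1A, stress-induced regulators of growth arrest, had 0.71 (exact permutation p = 0.0524) and 0.83 (exact permutation p = 0.0857). Monocyte and neutrophil markers were higher on the same cold arrays, and their part in these values was not tested. ATF4, a regulator of the stress response, had 0.26 (exact permutation p = 0.0810), and ASNS, its target in amino acid metabolism, had -0.021 (exact permutation p = 0.790).

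**Figure D5:**
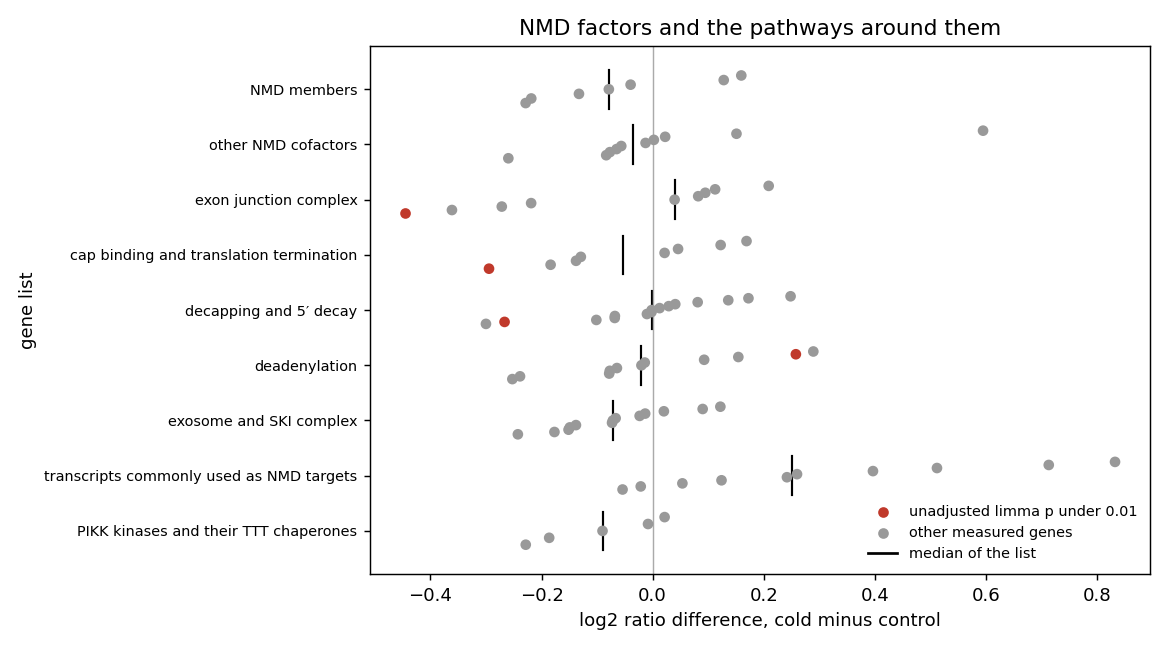
Change in log2 ratio, cold minus control (x axis), of each measured gene of the NMD factors and of 8 lists around them (y axis), with red points for unadjusted limma p under 0.01 and a black bar at each list's median. The NMD factors hold no red point, PNN, GSPT1 and DDX6 are the red points below 0 and PAN2 the one above, and the readout transcripts have the highest median at 0.25.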

How the data were processed

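PBMC RNA of 6 control and 4 cold ferrets was measured on 10 custom 2-colour Agilent arrays, on 10 slides scanned on 1 day, with 45328 target sequences of up to 4 probes. The authors deposited spot intensities from Agilent Feature Extraction 10.7.3.1 (version per the headers of the scanner output) as medians with local background, background-subtracted and dye-normalized intensities, flags, and a table of log2 values per sequence. Within a sequence that log2 table followed the mean log2 Cy3 minus the mean log2 Cy5 intensity without background subtraction (r = 1 after centring). The step that set its constants is not given in the sources used here, and its column medians were 7.87 to 8.78.

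The median signals were background-corrected by normexp with an offset of 50 (limma 3.58.1, R 4.3.3), control spots were left out, and ratios were normalized within arrays by loess (span 0.3, 4 iterations). Spots flagged as outliers (1.44%) were dropped, and spots, then probes, were averaged. A probe was kept where at least 0.5 of its spots were well above background in Cy3 on 4 arrays, which left 111051 probes of 26303 genes. Of the sequences, 21104 had a RefSeq gene name and 24224 had none, and each without a name was counted as a gene of its own. Genes were tested with lmFit and eBayes on all 10 arrays without covariates, with Benjamini-Hochberg adjustment over all genes. Single values were tested over all 210 splits of the arrays by exact two-sided permutation, with a smallest p of 0.00476. The number of arrays limits the precision.

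The genes and lists were chosen with earlier results of these data known. Named in the text are all NMD factors, per list the genes at p under 0.01 (at most 3) or else the gene with the lowest p, and the 3 genes nearest to UPF3B. RNPS1, CASC3, MAGOH, RBM8A, GADD45B, CDKN1A, ATF4 and ASNS were named after their values were seen. The nearest-gene measure left out symbols that are only a locus number. The fit was tested on simulated data. The labels do not say whether replicate numbers mark pairs, and the main fit took them as names only. The alternatives were the background, scaling, filter, probe summary, slide position, replicate block, array weights, the methods' t-test and each array left out. Probe sequences and a ferret genome were not used here, so no sequence or coordinate is given. Slide and scan day could not be fitted as batches, since each slide held 1 array of this series and there was 1 scan day. One gene of the cofactor list is counted but not reported here.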

Additional observations from a re-analysis of the deposited data

Results flagged for a closer look

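SMG6 in cold replicate 3 was far from the other cold arrays. Its log2 ratio was -0.85, against -0.31 to -0.27 on the other 3, and the gap took a share of 0.924 of the range of the group. Of 30 groups of arrays examined over 15 genes, this was the only one past the critical value, and chance gives about 1 in 20. Without that array the change of SMG6 was 0.30 (adjusted p = 0.319 in limma). It was 0.090 without control replicate 1 and 0.098 without control replicate 2, the control arrays with the lowest ratios.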

How the results depend on the processing

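No NMD factor passed the adjusted test in any setting tried except with the ferret channel alone, where the count was 1 (SMG6). At an unadjusted p under 0.01 the count was 0 in the main setting and 1 without background subtraction (UPF2), with the scanner's processed signals (UPF3B), under median centring (UPF3B), in the ferret channel alone (SMG6), without the filter on dim probes (UPF2) and with the methods' t-test (UPF2). Leaving out 1 array gave counts of 0 to 1, with 1 (UPF2) without cold replicate 3. SMG6 was lower under median centring (-0.91), in the ferret channel alone (-0.57) and in the authors' table (-0.38), and SMG9 likewise (-0.59, -0.054 and -0.16). UPF2 was 0.032 in the authors' table and UPF3A 0.0094 with the median over probes. With 1 array left out, SMG1 ranged from -0.23 to 0.057 (above 0 without cold replicate 4) and UPF1 from -0.071 to 0.020 (above 0 without control replicate 3 or cold replicate 1). UPF1 less UPF2 was -0.82 under median centring and -0.56 in the authors' table, and 0.13 to 0.25 with 1 array left out, past p 0.05 without control replicate 3 (exact permutation p = 0.00794) or cold replicate 1 (exact permutation p = 0.0476). UPF3B less UPF3A was -0.24 with the median over probes (exact permutation p = 0.00476). The count of list genes at p under 0.01 was 4, and 2 with processed signals, median centring or the authors' table, 1 with the reference channel also required to be above background (chosen after seeing the data), and 1 to 6 with 1 array left out (1 without cold replicate 3, 2 without control replicate 1 or control replicate 2). The cause of these shifts was not tested. Over all genes, the share of calls at p under 0.01 that were lower was 39.7% of 2272, and 81.5% of 1163 under median centring, 57.5% of 1505 with processed signals and 53.8% of 1093 in the authors' table. Adjusted calls over all genes numbered 0, and 1272 without cold replicate 2, 741 in the ferret channel alone, 633 without control replicate 5 and 115 with the filter on all arrays. Same-numbered control and cold arrays had correlations of -0.30, 0.54, 0.096 and -0.19. The labels do not say whether the numbers mark pairs, and correlations between different animals cannot decide this. With the replicate block, which left out control replicates 5 and 6, 0 factors passed either threshold. The changes of UPF2 and UPF3B were then -0.22 and -0.17, and both lost their call at an unadjusted p under 0.05. The part of the block and the part of the smaller number of arrays in this were not tested. Dim signal in the reference channel limits UPF2 and UPF3B.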
